A study of Mus musculus with 2 samples.

Results

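Among 7024 Treg cells profiled one by one, 558 carried at least 2 UMIs in the sum of Il1r2, Penk, Nr4a3 and Cxcl10, and these cells form the class described here. A UMI, or unique molecular identifier, marks 1 captured RNA molecule. The class held 201 of 3634 cells in the control library and 357 of 3390 cells in the rescued library. The control library pooled cells of 5 male Foxp3DTR-GFP/y Cd4creERT2 mice, which express Foxp3 from a GFP-tagged allele all their lives. The rescued library pooled cells of 4 male Foxp3LSL/y Cd4creERT2 mice, whose Foxp3 allele is a reversible null, interrupted by a floxed Thy1.1-STOP cassette until Cre removes it. All mice were on a C57BL/6 background, carried the tdTomato recombination reporter R26Tom and the tamoxifen-activated Cre driven by Cd4, were given the Cre-activating drug 4-hydroxytamoxifen (4-OHT) at postnatal day 14 and studied at 7 months, when GFP+ Treg cells were sorted from spleen and lymph node. Each group was 1 library of pooled mice, so no difference has a replicate check, no test was run, and library, allele and history cannot be told apart. The intervals below are 95% intervals for counting error only.

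Treg cells see self antigen through the T cell receptor, and each encounter sets off calcium, ERK and NF-kappaB signalling. Within minutes to hours, immediate early transcription factors such as the NR4A and EGR proteins are made, followed by surface receptors of the TNF receptor family, which receive further survival signals. The same signals switch off KLF2 and its targets, which keep resting cells circulating between blood and lymphoid organs. The genes of the rule stand at different points of this biology. Nr4a3 is an NR4A factor induced by the receptor, Il1r2 encodes a decoy receptor that binds interleukin-1 without signalling, Penk encodes the precursor of the enkephalin opioid peptides, and Cxcl10 encodes a chemokine that attracts CXCR3-bearing cells and is a classical target of interferon.

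The 4 genes lie apart in the genome, although Penk and Nr4a3 share a chromosome. In GRCm38, Il1r2 (ENSMUSG00000026073) spans chr1:40074079-40125231 on the plus strand, Penk (ENSMUSG00000045573) spans chr4:4133531-4138819 on the minus strand, Nr4a3 (ENSMUSG00000028341) spans chr4:48045153-48086447 on the plus strand and Cxcl10 (ENSMUSG00000034855) spans chr5:92346638-92348889 on the minus strand. RefSeq promoter sequences were matched for 3 of the 4 genes. Each window covers the 250 bases before the RefSeq start, which for Nr4a3 and Il1r2 lies inside the gene span given above. The Cxcl10 window is shown because the cells that Cxcl10 brought into the class had high levels of interferon genes. The 98 bases of the Nr4a3 window before the gene span are shown because the Nr4a3 cells had high levels of immediate early genes. Capitals mark matches to short motifs of factors that act in receptor and interferon signalling.
Nr4a3, chr4:48045055-48045152, plus strand: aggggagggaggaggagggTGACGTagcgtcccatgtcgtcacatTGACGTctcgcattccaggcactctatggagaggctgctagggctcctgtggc
Cxcl10, chr5:92348890-92349139, minus strand: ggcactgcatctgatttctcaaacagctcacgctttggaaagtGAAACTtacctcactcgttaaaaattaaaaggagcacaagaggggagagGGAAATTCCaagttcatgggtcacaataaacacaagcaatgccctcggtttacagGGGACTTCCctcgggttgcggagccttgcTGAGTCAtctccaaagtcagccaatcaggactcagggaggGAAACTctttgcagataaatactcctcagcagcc
In the Nr4a3 stretch the capitals are 2 copies of TGACGT, which is contained in the full cAMP response element TGACGTCA, and the whole window holds 3. In the Cxcl10 window the capitals are 2 copies of the interferon motif core GAAACT, the NF-kappaB sites GGAAATTCC and GGGACTTCC, and the AP-1 site TGAGTCA. Both strands were searched for these and for the NF-kappaB site GGGAATTCC. Of all 32851 mouse promoter windows of 250 bases, 6.47% held TGACGT, 1.55% TGACGTCA, 13.5% GAAACT, 1.17% 1 or more of the NF-kappaB sites and 4.46% TGAGTCA. The motifs were picked with these windows known, and a match describes letters only. The Il1r2 window, chr1:40085843-40086092 on the plus strand and inside the gene span, held none of these letters.

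Because the rule uses UMIs of these 4 genes, their levels in the class describe the choice and nothing more. Il1r2 was seen in 76 of 201 control and 177 of 357 rescued class cells, Penk in 97 and 145, Nr4a3 in 41 and 50, and Cxcl10 in 70 and 150. Scaled to counts per 1000000 UMIs (CPM) and summed over the class, Il1r2 stood at 251 in the control and 270 in the rescued library, and Nr4a3 at 68.1 and 72.8. Penk was higher in the control class (676 against 406 CPM), where 1 cell alone held 115 of its 874 UMIs. Cxcl10 was higher in the rescued class (396 against 258 CPM). Single cells held up to 124 UMIs of the 4 genes, while the median member held 4 in either library. At the edge of the rule, 63 control and 94 rescued members had a sum of exactly 2, and 179 control and 283 rescued cells stayed outside with a sum of 1.

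The class took up 5.53% (4.81 to 6.32) of control and 10.5% (9.52 to 11.6) of rescued cells, a ratio of 1.90. Class cells were more deeply sequenced than the rest, with a median of 5234 against 3704 UMIs in the control and 5078 against 3730 UMIs in the rescued library, so a cell of many UMIs had a better chance to meet the rule. In quartiles of depth, the share went from 2.20% in the shallowest to 12.8% in the deepest control cells, and from 2.95% to 20.8% in the rescued cells. To take depth out, UMIs were drawn at random down to 2000 per cell, and 65 control and 33 rescued cells with fewer were not used. The class then held 3.14% (2.59 to 3.76) of 3569 control cells and 5.87% (5.10 to 6.72) of 3357 rescued cells, a ratio of 1.87. Whether so large a gap would recur between further pools of mice of either genotype is unknown.

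**Figure D1:**
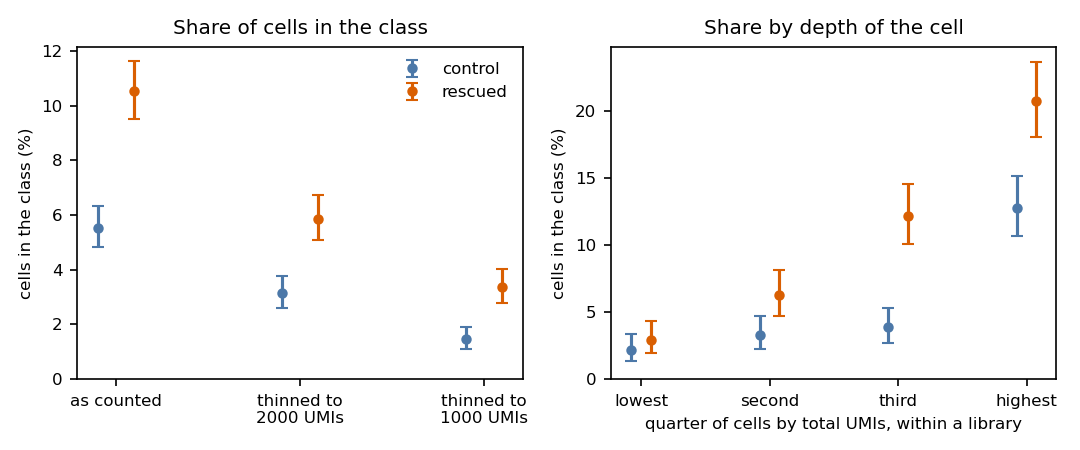
Share of cells in the class (percent, vertical axis) in the control and rescued libraries as counted, after thinning every cell to 2000 or 1000 UMIs, and by quartile of sequencing depth. Points are shares and bars exact binomial 95% intervals. The rescued share is above the control share at each setting, and both rise with depth, to 12.8% and 20.8% in the deepest quartile.

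Cells that descend from CD4 T cells present when 4-OHT was given can carry tdTomato. In the control library the class held 3.04% (2.19 to 4.11) of cells without a tdTomato UMI, 5.83% (4.8 to 7.0) of cells with 1 to 3, and 11.5% (8.79 to 14.8) of cells with 4 or more. In the rescued library the same shares were 8.62% (7.25 to 10.2), 10.5% (8.75 to 12.5) and 14.1% (11.8 to 16.7). These classes also differ in depth, with medians from 3508 to 4744 UMIs in the control and from 3603 to 4570 UMIs in the rescued library. At 2000 UMIs per cell, the rescued shares were 5.86% (4.85 to 7.01) without and 5.88% (4.72 to 7.22) with a tdTomato UMI, and the control shares 2.44% (1.81 to 3.22) and 4.03% (3.11 to 5.13). A cell without a tdTomato UMI may still carry the label, and free RNA can give a UMI to a cell that does not, so these are shares by detected UMIs and do not compare labelled with unlabelled cells.

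To describe how far the 4 genes occur in the same cells, each was left out in turn. Its level was read in cells chosen by the other 3, a choice that does not use it. The 4 genes were picked together with earlier results of these data known. Higher levels here are therefore no independent support for the class. Every left-out gene was higher in the chosen cells of both libraries. Penk was 3.80 (3.61 to 3.99) log2 units higher in the 129 control and 1.97 (1.78 to 2.16) higher in the 259 rescued cells that the other genes chose. A single control cell held 115 Penk UMIs, against 425 summed over the chosen control cells, and its part in the control ratio was not tested. For Il1r2 the log2 ratio was 3.59 (3.28 to 3.89) over 159 control cells and 2.56 (2.34 to 2.78) over 258 rescued cells. Cxcl10 stood at 2.79 (2.47 to 3.10) and 2.20 (2.01 to 2.38). Nr4a3 had the lowest ratio in the control library, at 1.15 (0.40 to 1.82), and stood at 2.0 (1.57 to 2.42) in the rescued library, close to Penk. The left-out gene was also read after thinning to 2000 UMIs, while the choice still used all UMIs and so still favoured deep cells. On that reading, 15.2% of chosen against 1.35% of remaining control cells had an Il1r2 UMI, and 17.5% against 3.29% in the rescued library. For Nr4a3 the control shares were 4.05% (1.64 to 8.16) and 1.24% (0.893 to 1.67), and these intervals overlapped.

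**Figure D2:**
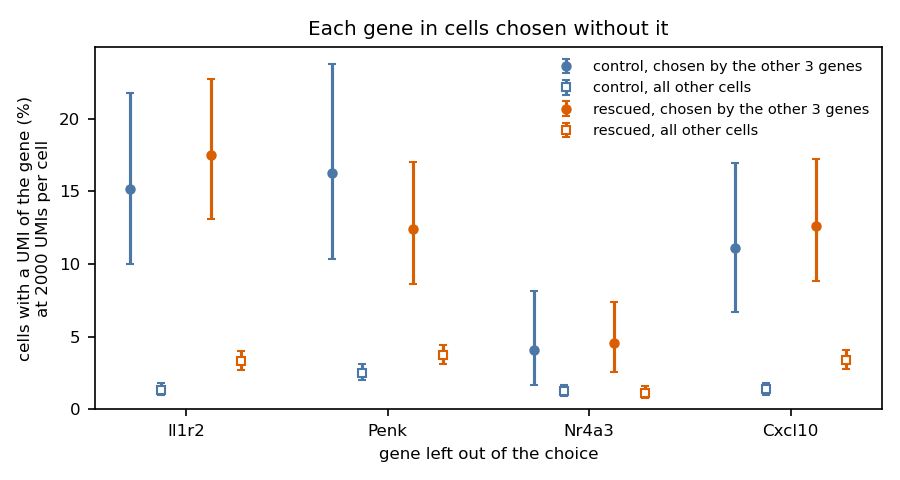
Percent of cells with a UMI of each rule gene (vertical axis), read after thinning to 2000 UMIs. Cells chosen on the unthinned UMIs of the other 3 genes are set beside the remaining cells of each library. Bars are exact binomial 95% intervals. Il1r2, Penk and Cxcl10 stand well above the remaining cells in both libraries, and the Nr4a3 intervals overlap in the control, at 4.05% against 1.24%.

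Even so, most members showed a single gene of the 4: 131 of 201 control cells (65.2%) and 213 of 357 rescued cells (59.7%). All 4 genes were seen together in 1 cell of each library. Pairs were still more frequent than the product of their single shares over all cells would give. Il1r2 and Cxcl10 met in 31 control cells against 3.33 from the product and in 57 rescued cells against 18.5, and Il1r2 and Penk met in 26 against 4.62 and in 54 against 17.2. Pairs with Nr4a3 were fewer in number, and Nr4a3 itself was seen in only 93 control and 81 rescued cells. Il1r2 and Nr4a3, for example, met in 6 control cells against 2.87 and in 20 rescued cells against 6.26. In the rescued library the pair nearest to its product was Penk and Cxcl10, with 28 cells against 15.7. Because the 4 genes were picked together, these pairs are no independent support for the class either. Deep cells raise all such pairs, and the part of depth in these counts was not tested.

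The rest of the transcriptome was compared between class cells and all other cells within each library, from UMIs summed over cells. Of 8777 genes with at least 200 UMIs over all cells and 50 in each library, 295 (3.36%) were at least 1.5 times higher in the class in both libraries and 228 (2.6%) at least 1.5 times lower, with a median log2 ratio of 0.02. Of the lists for the T cell receptor response, that of NF-kappaB stood furthest from this background and that of calcium and NFAT lay at it. NF-kappaB factors and their feedback genes shared 1 direction, with all 20 described genes higher in the class in both libraries and 11 of them past 1.5 times, at a median log2 ratio of 0.98 in the control and 0.84 in the rescued library. Among immediate early factors, 5 of 14 described genes were past the limit upward and 1 downward, with medians of 0.66 and 0.54. Feedback genes of ERK signalling had medians of 0.47 and 0.44, and 1 of 9 was past the limit. The calcium and NFAT list had medians of 0.02 and -0.04 and 1 of 11 genes past the limit.

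Nr4a1, the NR4A factor best known as a reporter of receptor signalling, ranked first among described genes outside the rule by the smaller ratio of the 2 libraries. In the control library it had 153 UMIs in the 201 class cells and 207 UMIs in the 3433 others, or 118 against 14.6 CPM. In the rescued library it had 276 UMIs in the class and 193 in the others, or 120 against 14.6 CPM. Class and other cells thus differed by 3.02 (2.71 to 3.33) and 3.05 (2.78 to 3.32) log2 units, with almost the same summed levels in the 2 libraries. The level was uneven over members. It was far higher in the 26 control and 20 rescued members that Nr4a3 alone brought in, which are described below. At 2000 UMIs per cell, 11.0% of control and 9.86% of rescued class cells had an Nr4a1 UMI, against 1.87% and 1.63% of other cells, so its RNA was caught in a minority of members.

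Other transcription factors of the response followed the same direction. Egr2, an early growth response factor, was 2.31 (1.95 to 2.66) and 2.40 (2.11 to 2.69) log2 units higher in the control and rescued class. Batf, an AP-1 family factor needed for effector Treg cells, was at 550 against 133 CPM in the control and 569 against 206 CPM in the rescued library. Egr1, chosen after its values were seen, was 1.32 (1.04 to 1.58) and 1.80 (1.59 to 2.0) higher, and Irf4, the partner of BATF and likewise chosen after its values were seen, 2.13 (1.79 to 2.47) and 1.59 (1.30 to 1.87). Jun went the other way, at -0.74 (-0.92 to -0.57) and -0.60 (-0.73 to -0.47), so that the AP-1 genes did not move as a block. Orai1, the pore of the calcium channel opened by the receptor, was the calcium gene past the limit, at 1.14 (0.96 to 1.32) and 1.04 (0.89 to 1.19).

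Among NF-kappaB targets, Bcl2a1b and Bcl2a1d, near-identical copies of a survival gene whose reads may be split between them, were 2.29 and 2.89 log2 units higher in the control and 1.68 and 2.01 in the rescued class. Nfkbia, which encodes the inhibitor that ends each pulse of NF-kappaB, was the most abundant of the list, at 1168 against 489 CPM in the control and 1050 against 463 CPM in the rescued library. Its log2 ratio was 1.26 (1.18 to 1.34) and 1.18 (1.11 to 1.25). Relb, a subunit of the alternative NF-kappaB dimer, was 1.09 (0.87 to 1.30) and 1.03 (0.85 to 1.20) higher.

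Surface receptors gave a similar picture. Of 10 described early activation genes 6 were past the limit upward and 0 downward, with medians of 0.77 and 0.64, and of 11 inhibitory receptor genes 5 and 0, with medians of 0.81 and 0.51. Cd83, an early activation protein, was at 387 against 85.0 CPM in the control class and at 360 against 97.2 CPM in the rescued class. Cd69, which holds cells in tissue by binding the S1P receptor, was 0.72 (0.55 to 0.89) and 0.70 (0.55 to 0.84) higher. Of 10 genes for costimulatory TNF receptors and their relatives, 4 were higher and 1 lower. Tnfrsf9 (4-1BB), Tnfrsf4 (OX40) and Tnfrsf18 (GITR) are receptors that enlarge Treg responses on contact with their ligands. Tnfrsf9 was 2.16 (2.01 to 2.31) and 1.68 (1.57 to 1.78) log2 units higher, and was caught in 41.0% of control and 49.9% of rescued class cells at 2000 UMIs, against 12.1% and 19.1% of other cells. Tnfrsf4 reached 1491 against 386 CPM and 1823 against 671 CPM, and Tnfrsf18 was 1.03 (0.93 to 1.13) and 0.62 (0.54 to 0.69) higher. Pdcd1, the gene of the inhibitory receptor PD-1, was 2.21 (2.02 to 2.41) and 1.56 (1.37 to 1.74) higher, whereas Ctla4, on which Treg suppression depends, differed by 0.41 (0.26 to 0.55) and 0.37 (0.28 to 0.45) and did not reach 1.5 times.

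Genes of growth were higher as well. All 18 described genes of the Myc-type growth list, which serve ribosome building and polyamine and nucleotide synthesis, were higher in the class in both libraries, 7 of them past the limit, with medians of 0.61 and 0.56. Ncl, the nucleolar protein nucleolin, was at 1161 against 688 CPM and 1021 against 692 CPM. Glycolysis genes had medians of 0.27 and 0.26, with 1 of 11 past the limit. Of 12 genes of the G1 to S step 3 were past the limit, with medians of 0.63 and 0.28, and Mcm6, part of the helicase that opens replication origins, was 1.39 (1.17 to 1.60) and 0.70 (0.51 to 0.89) higher. Mitosis genes were too rare to describe beyond 3 genes, of which 0 were past the limit in either direction.

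Resting and recirculation genes were lower, with 7 of 12 past the limit downward and 0 upward, and medians of -1.23 in the control and -0.70 in the rescued library. Klf2, the factor that keeps cells recirculating, had 213 against 903 CPM in the control and 161 against 439 CPM in the rescued library. Its log2 ratios were -2.09 (-2.26 to -1.91) and -1.45 (-1.61 to -1.30). S1pr1, the KLF2 target that lets cells leave lymph nodes and a gene chosen after its values were seen, was at -1.91 (-2.28 to -1.56) and -1.10 (-1.39 to -0.81). Bcl2 and Socs3, survival and feedback targets of STAT5 or related cytokine signals, were at -1.51 (-1.68 to -1.34) and -2.09 (-2.52 to -1.69) in the control and at -0.86 (-1.01 to -0.71) and -1.07 (-1.25 to -0.90) in the rescued class. Il2ra, the high-affinity chain of the IL-2 receptor, did not follow activation upward, at -0.24 (-0.41 to -0.07) and -0.00 (-0.11 to 0.11). Over the IL-2 receptor and STAT5 list, 0 of 14 genes were higher and 3 lower past the limit.

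The genes lowest in the class beyond these lists included transcripts of quiescent T cells. Igfbp4 had 22 UMIs in the control and 1 UMI in the rescued class against 1874 and 423 UMIs in other cells, and Ly6c1, a surface protein of resting T cells, was at -2.35 (-2.86 to -1.88) and -3.28 (-4.60 to -2.22). Dapl1 had 5 and 3 class UMIs against 375 and 190. Foxp3 did not separate class from other cells, at 78.1 against 81.2 CPM in the control and 456 against 470 CPM in the rescued library. Of 9 Treg identity genes 1 was past the limit, with medians of 0.13 and 0.06, and T cell markers had medians of 0.07 and 0.03 with 0 of 9 genes past the limit, so these lists differed little between class and other cells. TdTomato was 0.45 (0.33 to 0.56) and 0.35 (0.28 to 0.42) higher.

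Further genes at the top of the ranking act in tissue repair and gene control. Areg encodes amphiregulin, the growth factor by which Treg cells help damaged tissue to heal. It had 47 UMIs in the control and 247 in the rescued class, 3.10 (2.52 to 3.68) and 3.00 (2.71 to 3.28) log2 units above other cells, although 1 rescued cell held 109 of the 247. Bhlhe40, a transcriptional repressor, was 2.86 (2.53 to 3.18) and 2.24 (2.0 to 2.48) higher and Rgs16, a brake on chemokine receptor signalling, 2.82 (2.54 to 3.09) and 2.31 (2.10 to 2.53). Slc7a10, an amino acid carrier, was 3.63 (3.19 to 4.07) and 2.66 (2.29 to 3.03) higher, and its UMIs were spread over 44 control and 71 rescued members with at most 9 in a cell. Sostdc1, a secreted antagonist of BMP and WNT signals, was 4.45 (4.00 to 4.92) and 2.56 (2.13 to 3.00) higher, but came from 11 control and 17 rescued members. Without Il1r2 in the rule, its log2 ratio averaged over the libraries went from 3.51 to 0.20. Chemokines were rarer still: Ccl4 had 94 UMIs in 6 control members, 68 of them in 1 cell, and 53 UMIs in 3 rescued members.

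For the partners of the rule genes, the lists were mostly sparse. Of 7 genes for IL-1 family receptors 4 could be described and 1 was higher past the limit, while Il1rap, the shared co-receptor that IL-1R2 also binds, stood at 0.04 (-1.0 to 0.93) and -0.04 (-0.85 to 0.69). Il1rn, the gene of the other natural brake on interleukin-1, had 9 and 8 class UMIs against 4 and 1 in other cells. Of the enkephalin processing and opioid receptor genes 3 could be described, and 0 were past the limit in either direction. Cxcr3, the receptor for CXCL10, was at 0.60 (0.35 to 0.84) in the control and -0.14 (-0.29 to 0.00) in the rescued class.

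**Figure D3:**
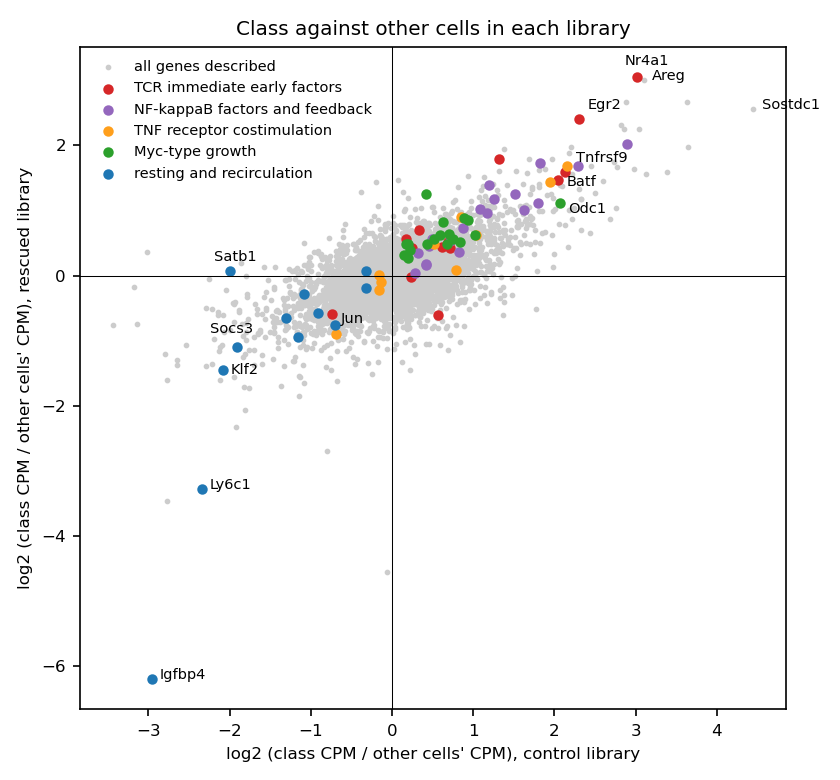
Log2 ratio of class to other cells for each of 8777 genes in the control (horizontal axis) and the rescued library (vertical axis), with genes of selected lists coloured. NF-kappaB genes lie in the upper right with medians of 0.98 and 0.84, and resting genes in the lower left with medians of -1.23 and -0.70.

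Members differed by the gene that brought them in. Cells with at least 2 UMIs of 1 rule gene and fewer of each other numbered 36 control and 86 rescued cells for Il1r2, 68 and 90 for Penk, 26 and 20 for Nr4a3, and 34 and 83 for Cxcl10. A further 28 and 56 cells had several genes at that level, and 9 and 22 met the rule only by the sum. The Cxcl10 cells carried an interferon response that the Il1r2, Penk and Nr4a3 cells did not show. Summed over 21 interferon genes, they had 6479 CPM in the control and 6216 CPM in the rescued library, against 2010 and 2324 CPM in the Il1r2 or Penk cells. The log2 ratios were 1.69 (1.57 to 1.80) and 1.42 (1.34 to 1.49), and 21 of 21 genes were higher in both libraries. With every cell given equal weight, so that deep cells did not count for more, the ratios were 1.75 and 1.62. The part of single cells in these means was not tested. Cells outside the class had 3044 CPM of this list in the control and 3194 CPM in the rescued library. The Il1r2 or Penk cells thus lay below them, which makes the summed ratios larger than ratios to the cells outside.

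Against cells with none of the 4 genes, the antiviral genes Ifit3 and Ifit1, both chosen after their values were seen, were 3.67 (3.29 to 4.04) and 2.78 (2.44 to 3.11) log2 units higher in the control Cxcl10 cells, and 3.28 (2.94 to 3.61) and 2.89 (2.63 to 3.13) in the rescued ones. In the Il1r2 cells Ifit3 was at -0.69 (-2.32 to 0.54) and -1.53 (-3.16 to -0.29), on the other side of 0. The ubiquitin-like modifier Isg15 was 1.79 (1.43 to 2.12) and 2.11 (1.91 to 2.30) higher in the Cxcl10 cells. For the class as a whole, the interferon list had medians of -0.19 in the control and 0.14 in the rescued library with 4 of 21 genes higher and 1 lower, so the higher levels lay mainly in 1 group of members. Myeloid cells make much Cxcl10, and their markers summed to 0 UMIs in the control and 3 UMIs in the rescued Cxcl10 cells. Dendritic cell markers summed to 1 and 14 UMIs, the latter at 30.8 CPM, 0.70 (-0.20 to 1.47) log2 units from cells with none of the 4 genes.

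The Nr4a3 cells had the highest immediate early and ERK feedback levels of the 4 single-gene groups. Compared with the Il1r2 or Penk cells, immediate early factors were 0.68 (0.57 to 0.79) and 1.28 (1.18 to 1.38) log2 units higher in the control and rescued libraries, ERK feedback genes 1.36 (1.13 to 1.60) and 1.73 (1.48 to 1.97), and NF-kappaB genes 0.85 (0.74 to 0.96) and 1.06 (0.95 to 1.16). Nr4a1 itself stood at 567 CPM in the control and 1066 CPM in the rescued Nr4a3 cells, against 11.8 and 11.0 CPM in cells with none of the 4 genes. Egr2 was 3.93 (3.35 to 4.48) and 5.33 (4.90 to 5.74) higher on the same comparison, Cd69 2.45 (2.17 to 2.72) and 3.11 (2.86 to 3.36), and Dusp2, a phosphatase that shuts off ERK, 2.09 (1.86 to 2.32) and 2.13 (1.87 to 2.38). Of the Areg UMIs in the rescued class, 126 of 247 lay in these 20 cells. A single rescued member held many of the 247, as given above, so this count need not describe the group.

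Genes of the stress that tissue dissociation causes moved with the same cells. That list shares several immediate early genes with the receptor response, and it was 0.50 (0.44 to 0.57) and 0.75 (0.69 to 0.82) log2 units higher in Nr4a3 cells than in Il1r2 or Penk cells. Among its heat shock genes, Hspa1b was at -0.86 (-1.99 to 0.07) in the control and 1.34 (0.55 to 2.03) in the rescued Nr4a3 cells against cells with none of the 4 genes, and Dnajb1 at 0.16 (-0.44 to 0.71) and 1.74 (1.25 to 2.19). In the class as a whole the list had medians of 0.14 and 0.36. The part of handling in the Nr4a3 cells was not tested, and with 26 and 20 cells few members carry these values.

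The Il1r2 and Penk cells had high costimulatory receptor and low resting transcripts. Neither was theirs alone. Resting genes summed to 1336 CPM in the control and 1054 CPM in the rescued Il1r2 or Penk cells. They stood at 1865 and 1248 CPM in Nr4a3 cells and at 2231 and 1248 CPM in Cxcl10 cells. Cells outside the class had 3376 and 1762 CPM. Summed over the TNF receptor list, Nr4a3 cells had 4481 CPM in the control and 5887 CPM in the rescued library, against 4445 and 5637 CPM in Il1r2 or Penk cells. Tnfrsf9 was 2.40 (2.09 to 2.69) and 2.06 (1.89 to 2.23) log2 units higher in Il1r2 cells and 2.55 (2.32 to 2.78) and 2.04 (1.86 to 2.21) higher in Penk cells than in cells with none of the genes, but only 0.78 (0.12 to 1.37) and 0.68 (0.37 to 0.97) higher in Cxcl10 cells. Klf2 was lowest in the Il1r2 cells of the control, at -2.57 (-3.07 to -2.11). Klrg1, a receptor of terminally differentiated Treg cells chosen after its values were seen, set Penk cells apart in the control library, with 71 UMIs in 68 cells against 1 UMI in 36 Il1r2 cells. In the rescued library it was at 169 CPM in Penk cells and 59.4 CPM in Il1r2 cells, and Nr4a3 cells reached 189 CPM. Of Sostdc1 and the myeloid-type factor gene Cebpa, the Il1r2 cells held 116 of 122 control and 39 of 92 rescued Sostdc1 UMIs and 27 of 65 and 35 of 65 Cebpa UMIs. ERK feedback genes were at -0.10 (-0.46 to 0.24) and 0.31 (0.11 to 0.49) in Cxcl10 cells against cells with none of the genes, and at 0.34 (0.15 to 0.54) and 0.03 (-0.16 to 0.22) in Penk cells, so apart from the Nr4a3 cells the groups had no common order in the 2 libraries. Recent stimulation through the T cell receptor, for which the class has been named, was not itself measured, and the class is called here by the genes of its rule.

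**Figure D4:**
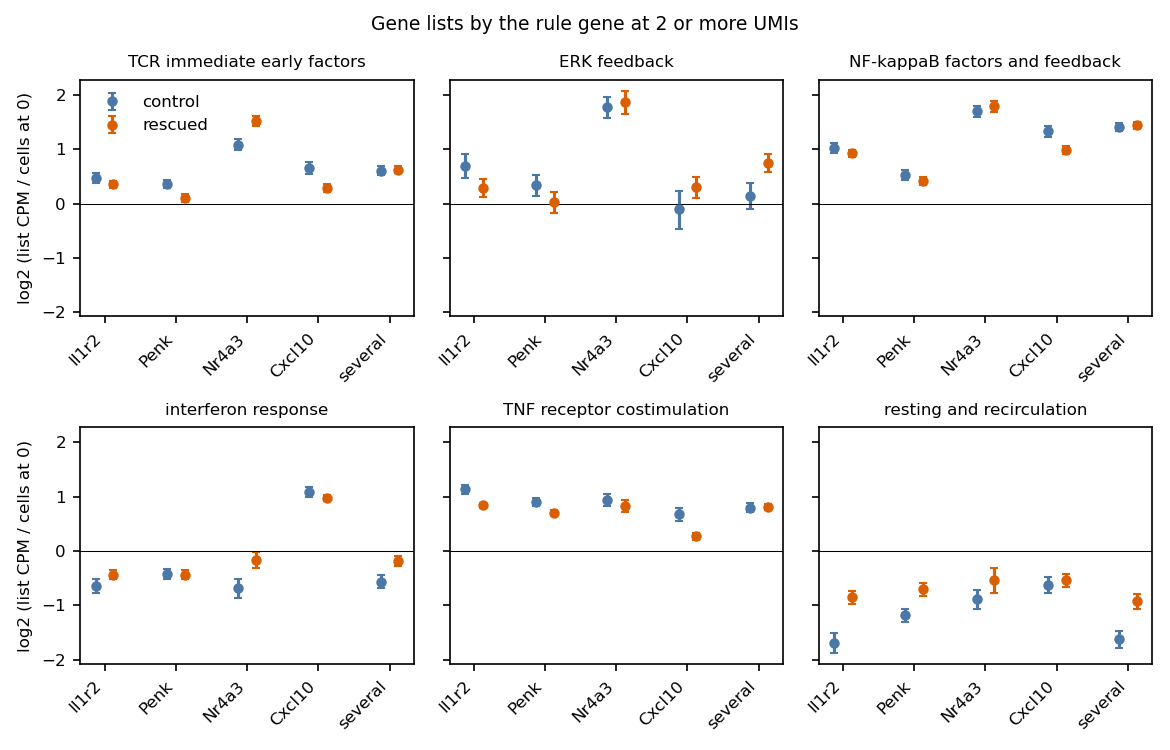
Log2 ratio of the summed level of 6 gene lists (vertical axis) in members grouped by the gene that brought them in, against cells with none of the 4 genes, for both libraries with 95% counting intervals. Interferon genes stand out in Cxcl10 cells, at 1.09 and 0.98, and ERK feedback genes in Nr4a3 cells, at 1.78 and 1.87.

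Cells at the edge of the rule lay between the class and the rest. Members with a sum of exactly 2 had median log2 ratios of 0.83 and 0.77 over the NF-kappaB genes, against 0.59 and 0.57 in the cells just outside with a sum of 1. For resting genes the medians were -1.09 and -0.56 just inside and -0.51 and -0.49 just outside. The rule thus cuts through a range of cells and does not mark a gap in these lists.

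Markers of other cell types were read in the class because droplets can hold free RNA or a second cell. B cell markers summed to 130 against 65.4 CPM in the control and 149 against 116 CPM in the rescued library, led by Igkc, the immunoglobulin light chain. Igkc was at 2.76 (2.37 to 3.15) and 1.04 (0.77 to 1.31), and 52 of its 91 control and 104 of its 156 rescued class UMIs lay in the Il1r2 cells. The defining markers Ms4a1 and Cd79a had 0 and 1 UMI in the control and 2 and 3 UMIs in the rescued class. Dendritic cell markers summed to 17.0 against 9.04 CPM and 56.7 against 19.7 CPM, with 57 UMIs of H2-Eb1 in the rescued class. Myeloid markers were at 4.64 against 3.67 CPM and 4.36 against 5.13 CPM, with 5 of 10 at 0 in both classes, among them Itgam. CD8 T and NK cell markers were at 14.7 against 21.6 CPM and 23.1 against 16.8 CPM with Cd8a at 0, red cell markers at 0.774 against 0.283 CPM and 1.74 against 2.11 CPM, and stromal markers at 67.3 against 121 CPM and 48.9 against 73.1 CPM, mostly Pecam1. At least 1 UMI of any of these markers was seen in 53.2% of control and 60.5% of rescued class cells, against 50.9% and 50.3% of other cells. Of the 3.5% of cells that most resembled simulated doublets, 16 of 127 control and 17 of 119 rescued cells were members, or 7.96% and 4.76% of the class. The median doublet score, from 0 to 1 by the share of simulated doublets among the most similar profiles, was 0.44 in control members against 0.22 in other control cells and 0.50 in rescued members against 0.28. Without these likely doublets, 67 of 67 named genes past 1.5 times kept their direction, and without all cells holding a marker UMI of another cell type 62 of 64 did. The doublet filter took out only 16 control and 17 rescued members, so it cannot decide what part doublets have in these ratios. The libraries shared 3 cell barcodes, none of them in a class cell.

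Inside the class, the rescued library was compared with the control library over 5482 genes with at least 100 class UMIs. In the rescued class 122 genes (2.23%) were at least 1.5 times higher and 117 (2.13%) at least 1.5 times lower, with a median log2 ratio of -0.01. Over the same genes, other cells had 195 higher and 64 lower and a median of 0.02. Genes of receptor signalling differed little by list median between the 2 classes: NF-kappaB genes had a median of -0.12 with 0 of 20 higher and 1 lower past the limit, immediate early genes 0.04 with 0 of 12 higher and 1 lower, and ERK feedback genes -0.13 with 0 of 3 past the limit in either direction. Nr4a1 differed by 0.02 (-0.27 to 0.32) and Batf by 0.05 (-0.08 to 0.18).

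Foxp3 was among the genes furthest apart between the 2 classes. It had 78.1 CPM in the control and 456 CPM in the rescued class, a log2 ratio of 2.55 (2.25 to 2.86), and the ratio in other cells was 2.53 (2.44 to 2.63), about the same as in the class. The 2 libraries express Foxp3 from differently engineered alleles, and a difference in allele, capture of its RNA or cell state cannot be told apart. Itgae, the integrin CD103 of tissue Treg cells, behaved alike, at 1.90 (1.61 to 2.19) in the class and 2.05 (1.95 to 2.14) outside it. Ctla4 was 0.81 (0.65 to 0.96) and 0.85 (0.79 to 0.91) higher, and Ahr, a receptor for dietary and microbial ligands, 1.38 (0.97 to 1.80) and 1.32 (1.15 to 1.48).

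For many activation genes the gap between libraries was smaller inside the class than outside. Tnfrsf4 was 0.29 (0.21 to 0.37) log2 units higher in the rescued class but 0.80 (0.75 to 0.84) higher in the other rescued cells, a difference between the contrasts of -0.51 (-0.60 to -0.41). Tnfrsf9 had 0.33 (0.18 to 0.48) and 0.82 (0.71 to 0.92), Icos, a costimulatory relative of CD28, 0.69 (0.55 to 0.84) and 1.40 (1.34 to 1.45), and Batf 0.05 and 0.63. Klf2, lower in the rescued library, was at -0.41 (-0.64 to -0.18) in the class and -1.04 (-1.09 to -1.0) outside. By list, the median rescued to control ratio over effector and homing genes was 0.38 in the class and 1.07 outside, over TNF receptor genes 0.23 and 0.64, and over resting genes -0.41 and -1.06. The resting median in the class depended on the rule, however, and was -1.13 with a sum of 1 or more. Over all 5482 genes, the rescued to control ratio was at least 1.5 times higher in the class than outside for 95 genes and at least 1.5 times lower for 202. These counts follow the sign of the difference and do not measure the size of the gap. Bcl2, for example, is among the 95 although its gap was smaller in the class, at -0.32 against -0.97 outside. None of these differences was tested across mice.

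**Figure D5:**
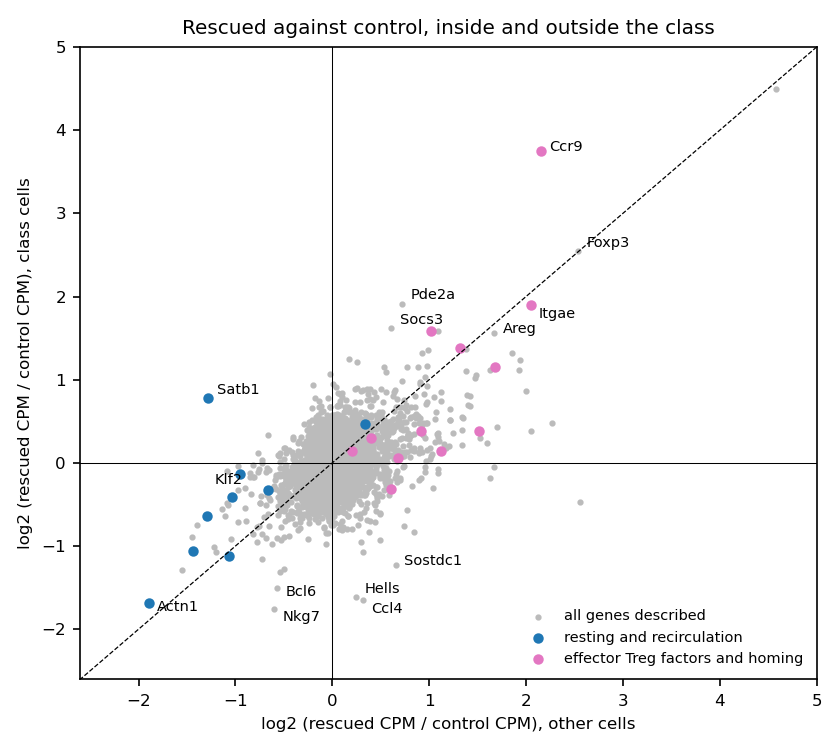
Log2 ratio of rescued to control for each of 5482 genes in other cells (horizontal axis) and in the class (vertical axis), with resting and effector genes coloured and some named genes marked. The dashed line marks equal ratios. Foxp3 lies near the diagonal at 2.53 and 2.55, and Satb1 lies off it at -1.28 and 0.78.

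Other genes separated the 2 classes. Satb1, a chromatin organizer of resting and developing T cells, was at 62.7 CPM in the control and 107 CPM in the rescued class, 0.78 (0.41 to 1.16) higher, whereas it was lower in other rescued cells at -1.28 (-1.37 to -1.19). Correspondingly, Satb1 was -1.99 (-2.32 to -1.67) log2 units from other cells in the control class and 0.07 (-0.14 to 0.26) in the rescued class, and the 246 rescued UMIs came from 123 cells with at most 14 in a cell. Socs3 was 1.62 (1.19 to 2.09) higher in the rescued class and 0.61 (0.53 to 0.68) higher outside it. Pde2a, a cyclic nucleotide phosphodiesterase, was 1.91 (1.15 to 2.77) and 0.72 (0.58 to 0.85) higher. Ly6a, the surface protein Sca-1, which interferons induce, was 1.58 (1.41 to 1.75) and 1.09 (1.05 to 1.13) higher.

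Homing and effector genes rested on fewer cells. Ccr9, the receptor that guides T cells to the small intestine, had 5 UMIs in 5 control members and 119 UMIs in 24 rescued members, a ratio of 3.75 (2.48 to 5.40) against 2.16 (1.99 to 2.32) in other cells. Gzma, a granzyme gene, had 0 UMIs in the control and 120 UMIs in 12 rescued class cells, 84 of them in 1 cell, which against a floor of 3 UMIs for the control class is at least 4.50 log2 units higher. Areg was 1.57 (1.11 to 2.05) higher, but without the cells that held a marker UMI of another cell type it was at -1.36. Ccr2, a receptor for inflammatory chemokines, was 1.59 (0.95 to 2.28) higher, and -1.64 when membership was set at 1000 UMIs per cell.

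Genes lower in the rescued class included some that were high only in the control class. Hells, a chromatin remodeller of dividing cells, had 54.9 CPM in the control and 17.9 CPM in the rescued class, -1.62 (-2.21 to -1.04), while other cells differed by 0.24 (-0.04 to 0.53). Of 11 genes of the G1 to S step 5 were lower past the limit and 0 higher, with a median of -0.51 in the class against -0.06 outside it. Nkg7, a granule protein of cytotoxic cells, was at -1.75 (-2.10 to -1.42) in the class and -0.60 (-0.82 to -0.39) outside, with 215 UMIs in 33 control and 113 UMIs in 27 rescued members. Bcl6, a transcriptional repressor made by follicular T cells, was at -1.50 (-2.09 to -0.92) in the class and -0.57 (-0.86 to -0.29) outside. Pdcd1 was at -0.67 (-0.89 to -0.44) against -0.01 (-0.16 to 0.14) outside. Actn1 and Cd9 were lower both inside, at -1.69 (-2.26 to -1.13) and -1.29 (-1.74 to -0.84), and outside, at -1.89 (-2.04 to -1.75) and -1.55 (-1.70 to -1.40). Ccl4, at -1.65 (-2.17 to -1.15), came from 6 and 3 cells and turned to 2.36 when membership was set at 1000 UMIs. Sostdc1, at -1.23 (-1.64 to -0.83), turned to 2.66 without Il1r2 in the rule.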

How the data were processed

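Single Treg cells from 2 pooled libraries, control and rescued, were captured with 10x Chromium 3′ V3 chemistry. The deposited table holds raw UMI counts for 7024 cells and 16098 genes, which the authors made with Cell Ranger 3.0 on GRCm38 with the tdTomato allele added, without normalization. Depth was 15446201 UMIs in the control and 15537656 UMIs in the rescued library, with 1415 to 46139 per cell. The study states a limit of 5% mitochondrial UMIs, whereas the median in these cells was 9.43% and 9.06%.

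Membership followed the sum of UMIs over 4 genes. UMIs were summed over cells per library and divided by the total (CPM). Ratios carry exact conditional binomial intervals, shares exact Clopper-Pearson intervals, and differences of log2 ratios delta-method intervals, all at 95%. A gene was described with at least 200 UMIs over all cells and 50 in each library, or with 100 class UMIs for the contrast of libraries, and 1.5 times was the limit for calling it higher or lower. Doublets were not removed but scored against simulated ones. With 1 library per group no test was run.

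Named genes were the 12 highest and 8 lowest against other cells by the smaller ratio of the libraries, the 8 highest and 8 lowest between libraries, the rule genes, Foxp3, tdTomato and the 6 most abundant genes of each of 28 lists. Neither ranking took in ribosomal, mitochondrial, antigen receptor or rule genes. Genes outside that rule, all from the lists, were chosen after their values were seen. The members and lists were chosen with earlier results of these data known. Scripts used Python 3.11.15, numpy 2.4.6, scipy 1.17.1, scikit-learn 1.9.0 and matplotlib 3.10.9, and were tested on simulated data. Alternatives changed the rule, depth, filters, weights and limits.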

Additional observations from a re-analysis of the deposited data

Results flagged for a closer look

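Among the genes of the lists that passed the limit of UMIs, for 5 the class lay above other cells in one library and below them in the other, with both counting intervals off 0. None of these differences was tested, since each group was 1 library. Ccl5, a chemokine of effector T cells, was at 0.46 log2 units in the control and -0.41 in the rescued library. Pim1, a kinase induced by cytokines, was at 0.27 in the control and -0.15 in the rescued library. Irf1, an interferon-induced factor, was at -0.25 in the control and 0.17 in the rescued library. The chaperone gene Dnaja1 was at -0.14 and 0.20, and Ltb, the gene of lymphotoxin beta, at -0.082 and 0.057.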

How the results depend on the processing

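No paired analysis was possible because either genotype had a single library. The share of cells in the class moved with the rule in either library, while the rescued share stayed above the control share throughout: 10.5% control and 18.9% rescued at a sum of 1 or more, 3.80% and 7.76% at 3 or more, 3.14% and 5.87% at 2000 UMIs per cell, 1.46% and 3.36% at 1000 UMIs, 4.38% and 7.61% without Il1r2, 3.55% and 7.64% without Penk, 4.79% in the control without Nr4a3, 4.49% and 7.79% without Cxcl10, and 8.56% rescued without cells holding a marker UMI of another cell type (foreign-marker cells). Against other cells, the number of lower genes was 107 at a sum of 1 or more and 458 at 1000 UMIs. The median of immediate early factors, averaged over libraries, was 0.94 at 1000 UMIs and 0.89 without foreign-marker cells, that of resting genes -0.65 at a sum of 1 or more and -1.32 at 1000 UMIs, and that of Myc-type genes 0.73 without Penk and 0.73 without Cxcl10. Between libraries inside the class, higher and lower genes numbered 74 and 42 at 1000 UMIs, 71 and 62 without foreign-marker cells, 250 and 278 with the UMI limit halved and 61 and 35 with it doubled, the last by the number of genes described. The resting median between libraries was -1.13 at a sum of 1 or more, -0.83 at 1000 UMIs and -0.15 without the likeliest doublets. Directions turned against other cells for Ccr2 (0.057) and Ube2c (0.63) without foreign-marker cells, Cpd (-0.38) and Gm30948 (0.055) at 1000 UMIs and Mki67 (-0.41) after reweighting cells to equal depth. Between libraries they turned for Areg (-1.36) and Ccl4 (0.94) without foreign-marker cells, for Ccl4 (2.36) and Ccr2 (-1.64) at 1000 UMIs, and for Sostdc1 at 1000 UMIs (3.14), at 2000 UMIs (2.70), without Il1r2 (2.66) and without foreign-marker cells (3.85). The causes were not tested. After reweighting to equal depth, 66 of 67 named genes past 1.5 times against other cells kept their direction and 56 stayed past it. Leaving out the deepest member of each library, chosen after seeing the data, gave 292 higher and 225 lower genes and turned no named gene.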

Other observations

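Secreted factors beyond those above came from few members. Il10, the gene of the suppressive cytokine interleukin-10, had 4 UMIs in 4 control members and 76 UMIs in 20 rescued members, 40 of them in 1 cell. Ccl1, a chemokine that binds CCR8, had 46 UMIs in 5 control and 59 UMIs in 11 rescued members, against 2 and 11 UMIs in all other cells. Both were chosen after their values were seen. Ebi3, a subunit of the cytokine IL-35 and likewise chosen after its values were seen, was more evenly shared between libraries, at 1.81 (1.48 to 2.14) log2 units above other cells in the control and 1.00 (0.77 to 1.22) in the rescued class.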
